A study of Mus musculus with 7 samples.

Results

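The genes described here carry, bind or sense zinc, or belong to the redox response that goes with it: the zinc exporter family Slc30a, the zinc importer family Slc39a, the metallothioneins, the regulator Mtf1, and the redox genes Gclc, Gclm and Hmox1. They were chosen by symbol, and 30 of the 23930 genes in the count tables met that choice: 10 Slc30a genes, 13 Slc39a genes, Mt1, Mt3 and Mt4, Mtf1, and the 3 redox genes. Counts came from targeted RNA sequencing with 1 amplicon per gene in 7 libraries of mouse bone marrow progenitors purified by fluorescence-activated cell sorting. The groups were haematopoietic stem cells of pMT-10 mice (pMT-10 HSC, 1 library), lineage-negative SCA-1+ c-KIT+ (LSK) CD150+ CD48+ cells of pMT-10 mice (2 libraries), common myeloid progenitors of pMT-10 mice (pMT-10 CMP, 2 libraries) and common myeloid progenitors of C57BL/6 mice (BL/6 CMP, 2 libraries). The pMT-10 mouse is a transgenic line in which a metallothionein promoter, switched on by zinc, drives IL-10 expression, so zinc is the inducing agent of the model. Mice of every group, the BL/6 controls included, drank zinc for 15 days, and no group without zinc was measured. A change of these genes with zinc itself therefore cannot be read from the data. The sources used here do not give mouse ages or the gates that defined CMPs and HSC.

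Zinc is kept at a low free level in the cytosol. Slc39a proteins move it into the cytosol from outside or from organelles, Slc30a proteins move it the other way, and metallothioneins hold it on their cysteines. The transcription factor MTF1 senses free zinc and binds metal response elements, through which it induces Mt1 and Slc30a1 in the mouse, and it represses Slc39a10. Gclc and Gclm encode the catalytic and the modifier subunit of glutamate-cysteine ligase, which starts glutathione synthesis, and Hmox1 encodes the inducible haem oxygenase. These redox genes are known targets of NRF2, which acts through antioxidant response elements.

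Promoter sequences of the members are shown because Mt1, Slc30a1 and Gclm have a known metal or antioxidant control, and Slc39a8 is an importer that was called in 3 of the 4 comparisons. RefSeq (build GRCm38.p6) gave 29 windows for 24 of the 30 members, each with 250 bases before and 50 bases after an annotated start. The windows are Mt1 at chr8:94178839-94179138 (plus strand), Slc30a1 at chr1:191906531-191906830 (plus strand), Gclm at chr3:122245307-122245606 (plus strand) and Slc39a8 at chr3:135825029-135825328 (plus strand). Capitals mark matches to the core of the metal response element (TGCACNC or TGCGCNC) or of the antioxidant response element (TGACNNNGC), on either strand, with overlapping matches merged.
Mt1: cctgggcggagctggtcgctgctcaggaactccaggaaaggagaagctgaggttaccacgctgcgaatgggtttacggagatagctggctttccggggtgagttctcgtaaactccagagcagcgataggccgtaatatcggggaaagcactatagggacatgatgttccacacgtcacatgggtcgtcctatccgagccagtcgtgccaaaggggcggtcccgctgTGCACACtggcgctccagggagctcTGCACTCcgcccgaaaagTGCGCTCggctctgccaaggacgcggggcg
Slc30a1: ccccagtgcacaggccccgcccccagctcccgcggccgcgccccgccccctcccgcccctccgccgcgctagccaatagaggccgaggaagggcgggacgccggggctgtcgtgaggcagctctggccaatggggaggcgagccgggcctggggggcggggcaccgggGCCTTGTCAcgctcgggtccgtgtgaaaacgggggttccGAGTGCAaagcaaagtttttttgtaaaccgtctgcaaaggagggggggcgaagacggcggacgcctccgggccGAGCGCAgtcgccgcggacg
Gclm: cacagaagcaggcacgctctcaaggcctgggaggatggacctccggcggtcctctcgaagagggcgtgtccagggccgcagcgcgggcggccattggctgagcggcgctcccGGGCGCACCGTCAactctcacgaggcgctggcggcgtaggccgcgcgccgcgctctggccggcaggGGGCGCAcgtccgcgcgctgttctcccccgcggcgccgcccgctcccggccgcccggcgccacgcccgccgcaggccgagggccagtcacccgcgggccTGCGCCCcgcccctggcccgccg
Slc39a8: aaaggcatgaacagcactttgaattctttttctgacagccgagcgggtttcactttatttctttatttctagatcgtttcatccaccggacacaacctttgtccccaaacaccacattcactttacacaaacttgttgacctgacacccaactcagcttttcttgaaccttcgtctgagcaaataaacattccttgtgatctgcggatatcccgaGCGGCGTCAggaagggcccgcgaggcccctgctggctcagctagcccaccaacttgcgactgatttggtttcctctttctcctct

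The Mt1 window held 3 metal response cores and no antioxidant core. Its cores at bases 3 to 9 and 21 to 27 lay after the annotated start, and bases beyond the window were not searched. Slc30a1 held 2 metal cores and 1 antioxidant core, and Gclm held 3 metal cores and 1 antioxidant core, which overlaps 1 of the metal cores. The Slc39a8 window shown held 1 antioxidant core, and a second annotated start of the gene had 1 metal core. A metal core was present in 16 of the 29 member windows (55.2%), against 25.7% of all 32851 RefSeq windows, and 3 or more were present in 4 member windows (13.8%), against 1.97% of all windows. Those 4 windows belonged to Mt1, Gclm, Slc30a4 and Slc30a10, and a pair of the Slc30a10 matches overlap on opposite strands. An antioxidant core was present in 7 member windows (24.1%), against 12.4% of all. Gclc, Hmox1, Slc30a8, Slc39a4, Slc39a6 and Slc39a14 had no window, so they were not searched for either core. Neither window of Slc39a10, nor the windows of Mtf1 and Slc30a9, held a match. A match is a run of letters in the window and was not tested as a binding site.

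Total counts ran from 7372430 (pMT-10 HSC) to 13854314 (pMT-10 LSK CD150+CD48+ replicate 2), and a gene with 0 counts may have had up to 3, which is 0.216 to 0.397 CPM (the usual scaling of counts to library size, here with TMM factors) in these libraries. Sequencing used 2 chips, numbered here by their deposited counts. Those counts carry dates months apart, so a chip difference also holds any difference between the dates. The LSK CD150+CD48+ and pMT-10 CMP pairs were on chip 1, and pMT-10 HSC and both BL/6 CMP replicates on chip 2. Strain and chip therefore coincide in the CMPs and cannot be told apart there. A list of 9 stem cell and LSK markers summed to 1115 CPM in pMT-10 HSC, 590 to 642 CPM in the LSK CD150+CD48+ pair, 233 to 334 CPM in pMT-10 CMPs and 381 to 408 CPM in BL/6 CMPs, and none of the 9 was at 3 counts or fewer in any group. A list of 6 myeloid progenitor markers summed to 352 CPM in pMT-10 HSC, 176 to 214 CPM in the LSK CD150+CD48+ pair, 365 to 602 CPM in pMT-10 CMPs and 519 to 567 CPM in BL/6 CMPs, and 2 of the 6 were at 3 counts or fewer in pMT-10 HSC. The 6 macrophage markers summed to at most 1.05 CPM in any library. The 5 neutrophil markers summed to 10.8 CPM in pMT-10 HSC and to less in every other library. The 5 stromal and endothelial markers summed to 118 CPM in pMT-10 HSC and 91.7 to 168 CPM elsewhere. Of these 5, 4 were at 3 counts or fewer in each pMT-10 group and 3 in BL/6 CMPs, so few genes carried the sum. The pMT-10 CMP pair differed more than the other pairs: the median absolute log2 difference between replicates over the tested members was 0.46 in pMT-10 CMPs (0.40 over all tested genes), 0.26 in LSK CD150+CD48+ cells (0.23) and 0.09 in BL/6 CMPs (0.15), on log2(CPM + 0.5). Nothing states that the libraries of a group are separate animals, so the p-values measure the spread between libraries, which may be technical. These are bulk libraries, in which fewer cells that express a gene and less RNA per cell cannot be told apart.

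Of the 30 members, 21 passed the filter on low counts and were tested, and 8 of those were called (adjusted p under 0.05, edgeR quasi-likelihood test with Benjamini-Hochberg adjustment over all 11429 tested genes) in at least 1 of 4 comparisons. The 9 others were near or at 0. Mt4, the metallothionein of stratified epithelium, Slc30a8, the exporter of insulin granules, and Slc30a10, a manganese exporter, had 0 counts in all 7 libraries. Mt3, the brain metallothionein, had 2 counts in pMT-10 HSC and 0 elsewhere. Slc30a3, Slc39a2, Slc39a5 and Slc39a12 reached at most 3 counts in any library. Slc30a2, a vesicular zinc exporter, had 0 counts in pMT-10 HSC, 1 and 0 in the LSK CD150+CD48+ pair, and 9 and 3 in pMT-10 CMPs, against 0 and 0 in BL/6 CMPs. Each amplicon amplifies with its own efficiency, so levels are compared between libraries and not between genes.

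**Figure D1:**
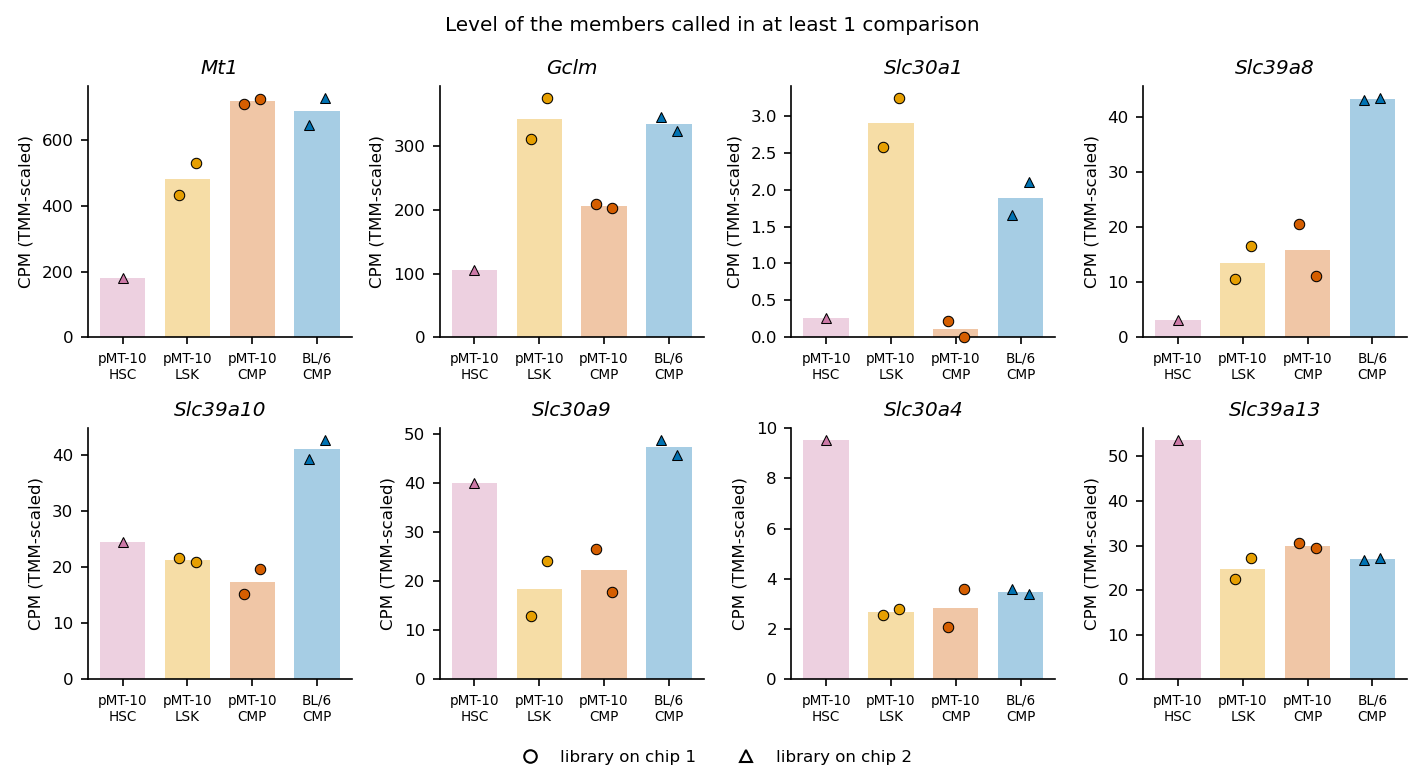
Level of the 8 called members in each library (y axis, CPM scaled by TMM factors, from 0; x axis, group). Bars are group means, points are libraries, circles were read on chip 1 and triangles on chip 2, and LSK stands for LSK CD150+CD48+; Mt1 and Slc39a8 are lowest in the pMT-10 HSC library, and Slc30a1 is at 0.265 CPM or less in pMT-10 HSC and pMT-10 CMPs.

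CMPs of the IL-10 transgenic strain were set against CMPs of the control strain. In that contrast 5 of the 21 tested members fell and 0 rose: the plasma membrane zinc exporter Slc30a1, the importers Slc39a8 and Slc39a10, the mitochondrial zinc exporter Slc30a9, and Gclm. Over all tested genes 28.0% were called in this comparison, 13.7% lower and 14.3% higher, so the 23.8% of members called is below the background in either direction, while the share lower is above it. These are 5 of 21 members, too few to read a direction against the shares over all genes. The median log2 fold change was -0.22 over the tested members and 0.01 over all tested genes, with 12 members below 0 and 9 above. At an unadjusted p under 0.05, 6 members were lower and 0 higher, and DESeq2 and limma-voom likewise called 5 lower and 0 higher.

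Mt1, the zinc-induced metallothionein and the usual readout of zinc exposure (chromosome 8, 94179082 to 94180327, GRCm38), had 712 and 727 CPM in pMT-10 CMPs, against 648 and 729 CPM in BL/6 CMPs. The groups overlapped, and the log2 fold change was 0.06 ± 0.18 (SE, edgeR adjusted p = 0.815). With the chip difference subtracted, an alternative described with Slc30a9, Mt1 was called lower in pMT-10 CMPs (log2 fold change -1.35 ± 0.29, edgeR adjusted p = 0.0141). Mtf1, which encodes the zinc sensor, had 18.7 and 17.4 CPM in pMT-10 CMPs, against 26.9 and 27.0 CPM in BL/6 CMPs. Both pMT-10 libraries lay below both BL/6 libraries, but the difference did not pass the test (log2 fold change -0.57 ± 0.24, edgeR adjusted p = 0.102).

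Slc30a1 (chromosome 1, 191906767 to 191913247) had 2 and 0 counts in pMT-10 CMPs, against 18 and 26 counts in BL/6 CMPs. The summed counts of 2 and 44, set against the TMM-scaled library totals, give a pMT-10 to BL/6 ratio of 0.0596, with an exact 95% interval of 0.00700 to 0.229 that covers counting error only. The gene was called (edgeR adjusted p = 0.0149), and the call was lost without LSK CD150+CD48+ replicate 2 (adjusted p = 0.0507), BL/6 CMP replicate 1 (0.0704) or BL/6 CMP replicate 2 (0.0893). The fitted log2 fold change was -3.92. It was -7.29 when pMT-10 CMP replicate 1 was left out, which leaves the pMT-10 CMP library with 0 counts, and it is no bound.

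Slc39a8, an importer of zinc and manganese (chromosome 3, 135825279 to 135888572), had 20.5 and 11.2 CPM in pMT-10 CMPs, against 43.1 and 43.4 CPM in BL/6 CMPs. The pMT-10 libraries were uneven, but both lay under the BL/6 pair (log2 fold change -1.44 ± 0.33, edgeR adjusted p = 0.0132). Slc39a10, a plasma membrane importer (chromosome 1, 46807544 to 46892852), had 15.3 and 19.6 CPM in pMT-10 CMPs, against 39.3 and 42.7 CPM in BL/6 CMPs. The groups did not overlap (log2 fold change -1.23 ± 0.23, edgeR adjusted p = 0.00578).

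Slc30a9 (chromosome 5, 67306955 to 67358443) had 26.6 and 17.8 CPM in pMT-10 CMPs, against 48.8 and 45.8 CPM in BL/6 CMPs (log2 fold change -1.09 ± 0.32, edgeR adjusted p = 0.0323). Its levels followed the chip across all groups: the 4 chip 1 libraries ran from 12.9 to 26.6 CPM and the 3 chip 2 libraries, pMT-10 HSC among them with 40.0 CPM, from 40.0 to 48.8 CPM. As an alternative, the change of LSK CD150+CD48+ cells over HSC, which spans the same 2 chips, was taken away from the CMP contrast. Then the log2 fold change of Slc30a9 was 0.011 (adjusted p = 0.994) and that of Slc39a10 was -1.03 (adjusted p = 0.0785), while Gclm (-2.41, 0.00147), Slc39a8 (-3.54, 0.00544) and Slc30a1 (-7.33, 0.00961) were called lower with larger values. Mt1 joined them and Slc39a13 was called higher (1.26, 0.0292), which made 1 member higher and 4 lower. What is taken away there also holds any change between those populations. Slc39a10 and Slc39a14 also had all 3 chip 2 libraries above all 4 chip 1 libraries, with no overlap, as did 11.5% of all tested genes, against 14.3% of the tested members (3 of 21). No member had all chip 2 libraries below all chip 1 libraries, against 10.2% of all tested genes.

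Gclm (chromosome 3, 122245557 to 122270732) had 209 and 203 CPM in pMT-10 CMPs, against 346 and 324 CPM in BL/6 CMPs (log2 fold change -0.70 ± 0.17, edgeR adjusted p = 0.0178). The libraries of each group lay close together and the groups did not overlap. Its partner Gclc had 79.0 and 111 CPM in pMT-10 CMPs, against 109 and 112 CPM in BL/6 CMPs, and did not pass the test (log2 fold change -0.22 ± 0.20, edgeR adjusted p = 0.438). Hmox1 was at 7 and 22 counts in pMT-10 CMPs, against 27 and 23 counts in BL/6 CMPs (log2 fold change -0.39 ± 0.66, edgeR adjusted p = 0.686).

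The 5 calls needed both BL/6 libraries, and fewer of all tested genes were called without either one. Leaving out BL/6 CMP replicate 1 or replicate 2 removed all 5, with edgeR adjusted p from 0.0567 (Slc39a10) to 0.173 (Gclm) without replicate 1 and from 0.0703 (Slc39a10) to 0.127 (Slc30a9) without replicate 2. The log2 fold changes moved little, with -0.66 and -0.74 for Gclm, -1.45 and -1.43 for Slc39a8, -1.30 and -1.16 for Slc39a10, -1.05 and -1.12 for Slc30a9 and -4.08 and -3.73 for Slc30a1 without replicates 1 and 2. Without either pMT-10 CMP library, which leaves a single library in that group, more members were called, and more of all tested genes were too. In the same libraries a list of 5 T and NK cell markers summed to 157 to 220 CPM in pMT-10 CMPs, against 71.7 to 76.1 CPM in BL/6 CMPs, with 4 of the 5 at 3 counts or fewer and the sum carried by Nkg7. Of the red cell markers Klf1 and Epor, Epor had 147 to 187 CPM in pMT-10 CMPs, against 217 to 267 CPM in BL/6 CMPs. Klf1 overlapped between the groups, with 36.4 to 53.5 CPM in pMT-10 CMPs and 34.5 to 46.6 CPM in BL/6 CMPs. The part of these markers in the 5 decreases was not tested.

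**Figure D2:**
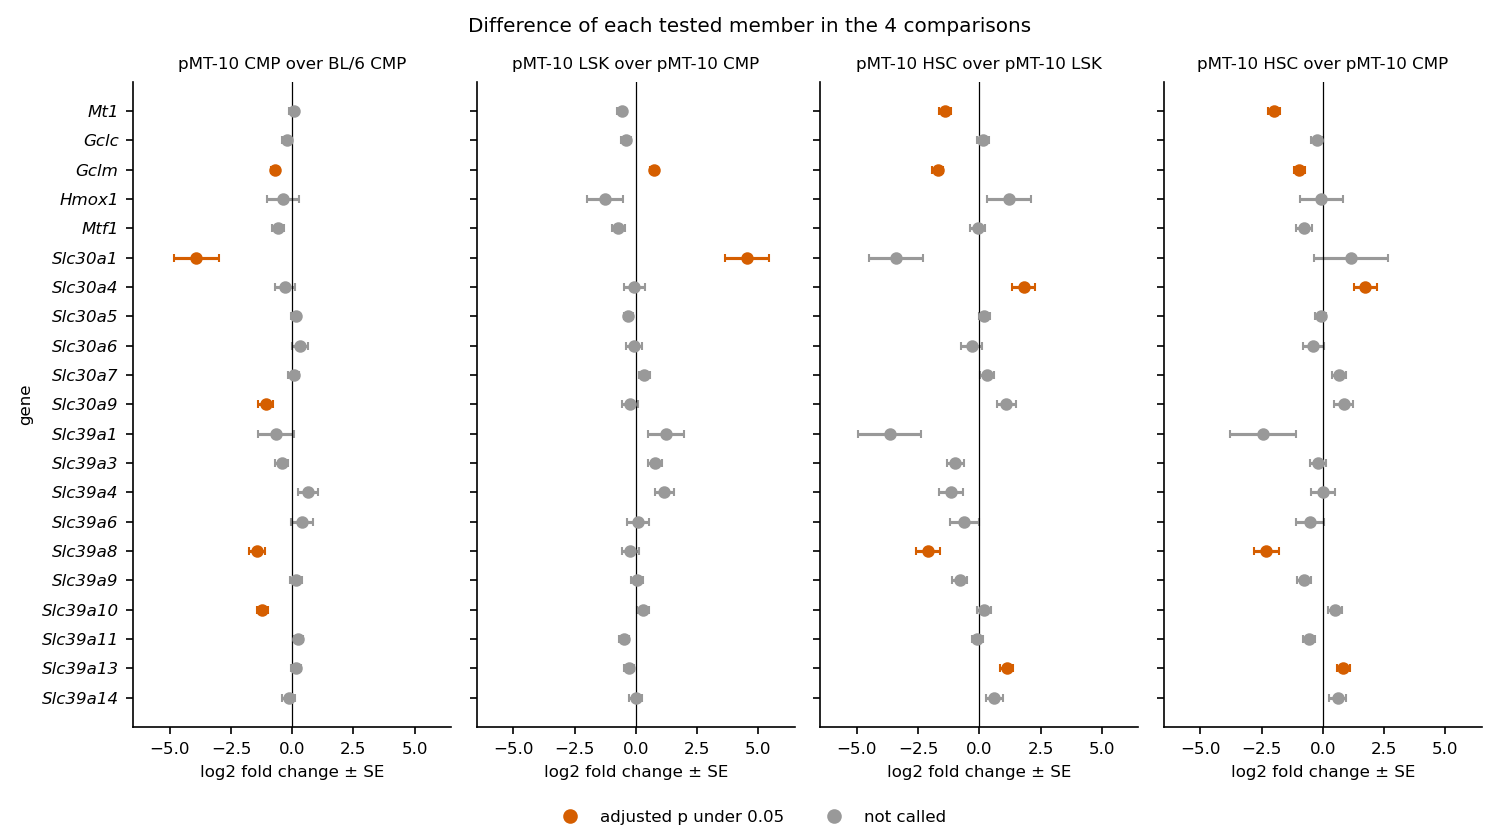
Log2 fold change with its standard error (x axis) of each of the 21 tested members (y axis) in the 4 comparisons, from edgeR. Orange points were called at an adjusted p under 0.05; in pMT-10 over BL/6 CMPs all 5 called members lie below 0, and in LSK CD150+CD48+ cells (LSK) over pMT-10 CMPs both called members lie above 0.

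LSK CD150+CD48+ cells and CMPs of the same pMT-10 strain were read on the same chip, and this comparison asks how the more primitive cells differ. Of the 21 tested members 2 were called higher and 0 lower in LSK CD150+CD48+ cells: Slc30a1 and Gclm, which were also lower in pMT-10 than in BL/6 CMPs. Both comparisons share the pMT-10 CMP libraries, so this is not a separate observation of those genes. Over all tested genes 11.8% were called, 5.92% higher and 5.92% lower, against 9.52% and 0% of the members. At an unadjusted p under 0.05, 4 members were higher and 3 lower; DESeq2 called 2 higher and 1 lower, and limma-voom 2 higher and 0 lower.

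Slc30a1 had 22 and 45 counts in LSK CD150+CD48+ cells, against 2 and 0 in pMT-10 CMPs, a ratio of 26.4 over the scaled totals with an exact 95% interval of 7.03 to 222 (counting error only, edgeR adjusted p = 0.0157). In CPM it stood at 2.57 and 3.24 in LSK CD150+CD48+ cells, and at 1.66 and 2.10 in BL/6 CMPs, on the other chip. Gclm had 311 and 376 CPM in LSK CD150+CD48+ cells, against 209 and 203 CPM in pMT-10 CMPs (log2 fold change 0.74 ± 0.17, edgeR adjusted p = 0.0290). Neither gene's groups overlapped.

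Mt1 had 433 and 531 CPM in LSK CD150+CD48+ cells, against 712 and 727 CPM in pMT-10 CMPs. Both LSK CD150+CD48+ libraries lay below both CMP libraries, but the difference did not pass the test (log2 fold change -0.58 ± 0.18, edgeR adjusted p = 0.0662). It passed in DESeq2 (adjusted p = 0.0323), and in edgeR without pMT-10 CMP replicate 1 (0.0129) or 2 (0.0260), and the adjusted p over all alternatives ran from 0.0129 to 0.316. Mtf1 had 9.93 and 12.0 CPM, against 18.7 and 17.4 CPM in pMT-10 CMPs (log2 fold change -0.71 ± 0.25, edgeR adjusted p = 0.0878). Slc39a4, known for zinc uptake in the gut, had 7.83 and 6.47 CPM, against 2.98 and 3.36 CPM in pMT-10 CMPs, and did not pass either (log2 fold change 1.17 ± 0.38, edgeR adjusted p = 0.0755). Slc39a8 (10.5 and 16.5 CPM in LSK CD150+CD48+ cells) and Slc39a10 (21.7 and 20.9 CPM) had log2 fold changes of -0.22 ± 0.34 and 0.29 ± 0.23 over pMT-10 CMPs, with edgeR adjusted p of 0.692 and 0.430.

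Leaving out either LSK CD150+CD48+ library removed both calls, with adjusted p of 0.123 and 0.132 for Slc30a1 and 0.112 and 0.180 for Gclm without replicates 1 and 2. The call of Gclm was also lost without BL/6 CMP replicate 1 (adjusted p = 0.0905) or 2 (0.0887), and in a fit of only the 2 groups compared (0.0921). With either LSK CD150+CD48+ library left out, fewer of all tested genes were called as well. With either pMT-10 CMP library left out, more members were called, and more of all tested genes were too.

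The pMT-10 HSC library stood apart in Mt1, Gclm and Slc39a8, which were lower there, and in Slc30a4 and Slc39a13, which were higher. Against LSK CD150+CD48+ cells 2 of 21 members rose and 3 fell, and against pMT-10 CMPs again 2 rose and 3 fell, with the same 5 genes; both comparisons use the single HSC library. Over all tested genes 18.8% were called against LSK CD150+CD48+ cells, 10.6% higher and 8.14% lower, and 25.5% against pMT-10 CMPs, 13.8% higher and 11.7% lower. The members' shares were 9.52% higher and 14.3% lower in each comparison. These are 2 and 3 of 21 members, too few to read a direction against the shares over all genes. The HSC group has 1 library, whose spread is assumed to be that of the other groups, and it was read on chip 2 while LSK CD150+CD48+ cells and pMT-10 CMPs were read on chip 1. Without either pMT-10 CMP library, which leaves a single library in that group, more members were called in both comparisons. Fewer members were called in both without either BL/6 CMP library or either LSK CD150+CD48+ library. Against LSK CD150+CD48+ cells the number called over all tested genes moved the same way in each case.

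Mt1 had 182 CPM in pMT-10 HSC, against 433 and 531 CPM in LSK CD150+CD48+ cells and 712 and 727 CPM in pMT-10 CMPs. The log2 fold change was -1.41 ± 0.24 against LSK CD150+CD48+ cells (edgeR adjusted p = 0.00568, and 0.0507 without LSK CD150+CD48+ replicate 2) and -1.99 ± 0.24 against pMT-10 CMPs (edgeR adjusted p = 0.000977, at most 0.00693 over 14 alternatives). BL/6 CMPs, on the same chip as the HSC library, had 648 and 729 CPM. Its groups, in order of level, ran pMT-10 HSC, LSK CD150+CD48+ cells and the CMPs; the step between LSK CD150+CD48+ cells and pMT-10 CMPs passed in DESeq2 but not in edgeR, and the CMPs of both strains overlapped. A list of 4 B cell markers summed to 52.5 CPM in pMT-10 HSC, against 15.8 to 17.0 CPM in LSK CD150+CD48+ cells and 11.2 to 19.9 CPM in pMT-10 CMPs, with 3 of the 4 at 3 counts or fewer in pMT-10 HSC. The T and NK cell list summed to 97.8 CPM in pMT-10 HSC, against 264 to 346 CPM in LSK CD150+CD48+ cells and 157 to 220 CPM in pMT-10 CMPs. Klf1 and Epor together summed to 80.4 CPM in pMT-10 HSC, against 217 to 220 CPM and 200 to 223 CPM in those groups. The part of these markers in the level of Mt1 was not tested.

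Gclm had 105 CPM in pMT-10 HSC, against 311 and 376 CPM in LSK CD150+CD48+ cells (log2 fold change -1.70 ± 0.23, edgeR adjusted p = 0.00252) and 209 and 203 CPM in pMT-10 CMPs (-0.97 ± 0.22, edgeR adjusted p = 0.0150). The call against pMT-10 CMPs was lost in a fit of only the groups compared (log2 fold change -1.03, adjusted p = 0.118). BL/6 CMPs on the same chip had 346 and 324 CPM. Gclc had 79.9 CPM in pMT-10 HSC, within the range of the pMT-10 CMP pair and above the LSK CD150+CD48+ pair of 69.4 and 74.6 CPM, and was not called. Hmox1 had 12 counts in pMT-10 HSC, against 7 and 8 counts in LSK CD150+CD48+ cells (log2 fold change 1.20 ± 0.90, edgeR adjusted p = 0.370). The ligase subunits had unlike patterns over these groups, although no test of the difference between them was made.

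Slc39a8 had 3.18 CPM in pMT-10 HSC (24 counts), against 10.5 and 16.5 CPM in LSK CD150+CD48+ cells (log2 fold change -2.10 ± 0.50, edgeR adjusted p = 0.0222) and 20.5 and 11.2 CPM in pMT-10 CMPs (-2.32 ± 0.51, edgeR adjusted p = 0.0119). The call against LSK CD150+CD48+ cells was lost without either of their libraries (adjusted p = 0.0760 and 0.118) and in limma-voom (0.0578). BL/6 CMPs, on the same chip as the HSC library, were at 43.1 and 43.4 CPM, so the 3 chip 2 libraries held both the lowest and the highest levels of Slc39a8. Its groups, from lowest to highest, ran pMT-10 HSC, LSK CD150+CD48+ cells, pMT-10 CMPs and BL/6 CMPs, and the LSK CD150+CD48+ and pMT-10 CMP pairs overlapped.

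Slc30a4, which moves zinc into vesicles (chromosome 2, 122681233 to 122702663), had 9.53 CPM in pMT-10 HSC, against 2.57 and 2.81 CPM in LSK CD150+CD48+ cells (log2 fold change 1.82 ± 0.47, edgeR adjusted p = 0.0295) and 2.10 and 3.59 CPM in pMT-10 CMPs (1.74 ± 0.48, edgeR adjusted p = 0.0279). Slc39a13, an importer of the secretory pathway (chromosome 2, 91061791 to 91070417), had 53.7 CPM in pMT-10 HSC, against 22.4 and 27.3 CPM in LSK CD150+CD48+ cells (log2 fold change 1.11 ± 0.25, edgeR adjusted p = 0.0177) and 30.6 and 29.4 CPM in pMT-10 CMPs (0.84 ± 0.25, edgeR adjusted p = 0.0382). In both genes the HSC value lay above all 6 other libraries, and BL/6 CMPs on the same chip had 3.60 and 3.39 CPM of Slc30a4 and 26.8 and 27.3 CPM of Slc39a13. These 4 calls were lost without either BL/6 CMP library (adjusted p 0.0655 to 0.132) and without either LSK CD150+CD48+ library (0.0627 to 0.152). Against pMT-10 CMPs both were also lost in a fit of only the groups compared (adjusted p = 0.180 for Slc30a4 and 0.318 for Slc39a13), and Slc39a13 with a replicate block (0.0658). Over all alternatives the log2 fold changes against pMT-10 CMPs ran from 1.40 to 2.18 for Slc30a4 and from 0.78 to 0.88 for Slc39a13, and against LSK CD150+CD48+ cells from 1.75 to 1.95 and from 0.98 to 1.26.

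Slc30a1 had 2 counts in pMT-10 HSC (0.265 CPM), against 22 and 45 counts in LSK CD150+CD48+ cells, a ratio of 0.0887 over the scaled totals with an exact 95% interval of 0.0105 to 0.333. The difference did not pass the test across all genes (edgeR adjusted p = 0.0569). Slc39a1, a plasma membrane importer, had 2 counts in pMT-10 HSC, against 33 and 44 counts in LSK CD150+CD48+ cells, a ratio of 0.0772 with an exact 95% interval of 0.00918 to 0.288 (edgeR adjusted p = 0.0744). Mtf1 had 10.6 CPM in pMT-10 HSC, between the LSK CD150+CD48+ libraries and below both pMT-10 CMP libraries (log2 fold change -0.77 ± 0.32 against pMT-10 CMPs, edgeR adjusted p = 0.102). Slc39a10 had 24.5 CPM in pMT-10 HSC, above both LSK CD150+CD48+ libraries, and was not called against either group. Slc39a1 had 3 and 23 counts in pMT-10 CMPs, the widest replicate gap of any tested member, and 26 and 29 counts in BL/6 CMPs.

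**Figure D3:**
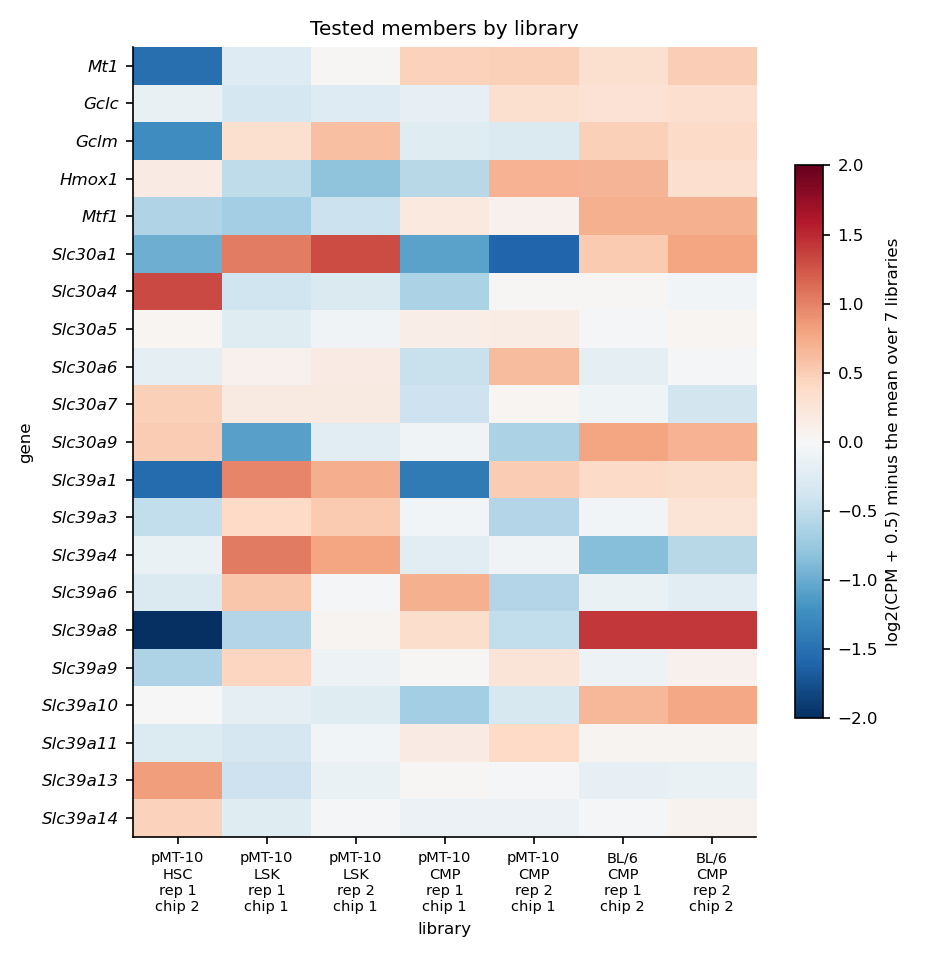
Level of the 21 tested members (rows) in the 7 libraries (columns, with replicate and chip), as log2(CPM + 0.5) minus the mean of the gene over the 7 libraries; red is above and blue below that mean, and LSK stands for LSK CD150+CD48+. Slc39a8 is darkest blue in pMT-10 HSC and darkest red in BL/6 CMPs, and Slc30a5 and Slc39a11 stay pale throughout.

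The other 13 tested members were called in none of the 4 comparisons. Slc30a5, of the early secretory pathway, ran from 50.5 to 66.3 CPM over the 7 libraries, a 1.31-fold range that is the narrowest of the tested members with counts in every library. Its partner Slc30a6 ran from 16.4 to 35.2 CPM, with both ends in the pMT-10 CMP pair. Slc30a7, another exporter into the secretory pathway, ran from 30.7 CPM in pMT-10 CMP replicate 1 to 57.7 CPM in pMT-10 HSC. The Golgi-associated importers Slc39a9 and Slc39a11 ran from 42.6 to 88.4 CPM and from 48.8 to 81.4 CPM.

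Among the surface importers that were not called, Slc39a3 ran from 13.1 to 28.8 CPM with both LSK CD150+CD48+ libraries on top. Slc39a14, which also carries iron and manganese, ran from 7.71 to 12.8 CPM. Slc39a6, the closest relative of Slc39a10, ran from 4.87 to 12.7 CPM, and its lowest and highest values were the 2 pMT-10 CMP libraries. By family, 2 of 6 tested Slc30a genes and 2 of 10 tested Slc39a genes were called lower in pMT-10 than in BL/6 CMPs, and 1 of 3 redox genes was. Over all tested genes 13.7% were called lower there, and the families are too small to set against that share.

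Other metal and redox genes were looked at as a list of 33, of which 31 were in the tables and all 31 were tested. In pMT-10 against BL/6 CMPs 3 were called higher and 4 lower, where 14.3% and 13.7% of all tested genes were. The median log2 fold change of the list was 0.01. Among 11 genes of zinc, copper and metal handling, Atox1, the copper chaperone, had 131 and 145 CPM in pMT-10 CMPs, against 62.8 and 64.8 CPM in BL/6 CMPs (log2 fold change 1.11 ± 0.18, edgeR adjusted p = 0.00336). Trpm7, a channel for magnesium, calcium and zinc, had 46.9 and 41.9 CPM, against 105 and 102 CPM in BL/6 CMPs (-1.22 ± 0.18, edgeR adjusted p = 0.00287). Neither gene's groups overlapped. Both genes also split by chip across all groups. Atox1 was at 68.5 to 145 CPM in the chip 1 libraries and 57.2 to 64.8 CPM in the chip 2 libraries. Trpm7 was at 41.9 to 60.5 CPM on chip 1 and 79.8 to 105 CPM on chip 2.

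Among 20 tested genes of the NRF2, glutathione and thioredoxin list, Keap1, which holds NRF2 inactive, had 92.0 and 143 CPM in pMT-10 CMPs, against 49.9 and 52.9 CPM in BL/6 CMPs (log2 fold change 1.19 ± 0.25, edgeR adjusted p = 0.00925). Thioredoxin, Txn1, had 1984 and 1256 CPM, against 808 and 887 CPM in BL/6 CMPs (0.93 ± 0.23, edgeR adjusted p = 0.0157). Catalase, Cat, which breaks down hydrogen peroxide, had 10.4 and 17.6 CPM, against 53.1 and 41.0 CPM in BL/6 CMPs (-1.75 ± 0.36, edgeR adjusted p = 0.00807). The constitutive haem oxygenase Hmox2 had 74.2 and 66.5 CPM, against 138 and 128 CPM in BL/6 CMPs (-0.92 ± 0.18, edgeR adjusted p = 0.00722). The pMT-10 HSC library, on the same chip as the BL/6 pair, had 274 CPM of Hmox2. Keap1, Txn1 and Hmox2 split by chip across all groups, and Cat did not, with 10.1 CPM in pMT-10 HSC. Keap1 was at 79.0 to 143 CPM on chip 1 and 49.9 to 53.0 CPM on chip 2. Txn1 was at 1256 to 1984 CPM and 808 to 892 CPM, and Hmox2 at 66.5 to 113 CPM and 128 to 274 CPM. Strain and chip cannot be told apart in these CMP differences. The list therefore held members that moved in both directions.

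Against pMT-10 CMPs, LSK CD150+CD48+ cells had 0 of the 31 genes higher and 3 lower in edgeR, where 5.92% and 5.92% of all genes were. At an unadjusted edgeR p under 0.05, 3 were higher and 6 lower, and DESeq2 called 0 and 3. In pMT-10 HSC 5 were higher and 9 lower against pMT-10 CMPs, where 13.8% and 11.7% of all genes were (DESeq2 called 5 and 10, limma-voom 6 and 9). Against LSK CD150+CD48+ cells 1 was higher and 5 lower in edgeR, with 10.6% and 8.14% of all genes, but the balance differed by tool, with 2 and 7 in DESeq2 and 4 and 4 in limma-voom. Among the NRF2, glutathione and thioredoxin genes against pMT-10 CMPs, those called higher in HSC were Srxn1, Slc7a11, Hmox2 and Maff, and those called lower were Nfe2l2 (which encodes NRF2), Keap1, Nqo1, Gsr, Pgd, Blvrb and Mafk.

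**Figure D4:**
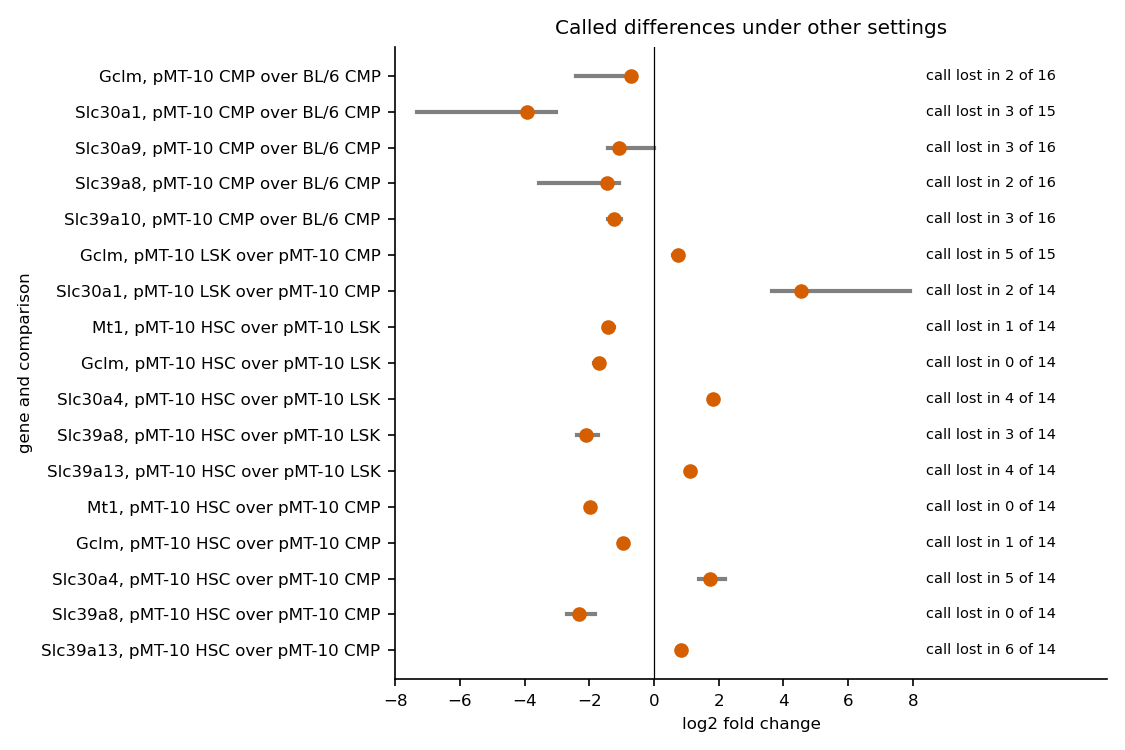
Log2 fold change (x axis) of each of the 17 called differences (y axis, gene and comparison) as reported (orange point) and its range over the alternative settings (grey line), with the number of alternatives in which the call was lost at the right. The calls of Mt1 and Slc39a8 in pMT-10 HSC over pMT-10 CMPs, and of Gclm in pMT-10 HSC over LSK CD150+CD48+ cells (LSK), were kept in all 14 alternatives.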

How the data were processed

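The submitters deposited raw counts of reads per gene, 1 amplicon per gene, from RNA extracted with a column kit and amplified with an Ion AmpliSeq mouse transcriptome panel, per the labels' protocols. Per the submitters' processing notes the genome build is mm10, and the sources used here name no aligner or counter. Reads carry no molecular identifiers, so the intervals and the floor of 3 counts reflect counting error alone. Groups came from the sample labels, and chips from the 2 deposited tables. Members were chosen by symbol (Slc30a or Slc39a with a number, Mt1 to Mt4, Mtf1, Gclc, Gclm, Hmox1). The count tables had no row under the symbols Mt2 and Slc39a7, so these were not analysed here. The members and gene lists were chosen with earlier results of these data known.

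All 23930 genes entered edgeR 4.0.16 (R 4.3.3). TMM factors and a filter on low counts (filterByExpr, minimum count 10) left 11429 genes, fitted with a robust quasi-likelihood model of 4 group means. Calls had a Benjamini-Hochberg adjusted p under 0.05. Standard errors were derived from the fold change and F value of that fit. CPM are computed from the counts and TMM factors. Counting ratios have exact 95% binomial intervals. Alternatives used other scaling, filters, designs, DESeq2 1.42.0, limma-voom (limma 3.58.1) and left out each library in turn. The script was tested on simulated data. Positions are from GENCODE M21 (GRCm38). Members called in any comparison, with Mt1, Mtf1, Gclc, Gclm and Hmox1, were named with every library's value, other members by range or highest count, and other listed genes if called between the CMPs with a mean of at least 20 CPM in the higher group. One listed marker gene is not reported here.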

Additional observations from a re-analysis of the deposited data

How the results depend on the processing

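Over 11 members and 4 comparisons, 639 alternative values were computed: 559 kept direction and side of the threshold, 43 lost a call and 19 gained one with the direction kept, and 18 changed sign, among which Slc30a9 lost its call and Mt1 gained one (adjusted p = 0.0141), both between the CMPs with the chip difference subtracted. Subtracting the chip difference gave 2125 genes called between the CMPs, and log2 fold changes there of -1.35 for Mt1, 0.81 for Hmox1, 1.52 for Slc30a4 and 0.011 for Slc30a9. In LSK CD150+CD48+ cells against pMT-10 CMPs, a minimum count of 50 left 1 member called, no filter gave 2237 genes, and a fit of only the groups compared gave 1 member and 595 genes. For HSC against LSK CD150+CD48+ cells, no filter gave 10 members, and only the groups compared gave 11 members and 3987 genes. For HSC against pMT-10 CMPs, only the groups compared gave 2 members and 1042 genes. Leaving out 1 library at a time gave 0 to 8 members called between the CMPs, 0 to 7 in LSK CD150+CD48+ cells against pMT-10 CMPs, 1 to 11 in HSC against LSK CD150+CD48+ cells and 3 to 10 in HSC against pMT-10 CMPs, with 582 to 5268, 44 to 4274, 266 to 4811 and 1733 to 5222 of all genes. The same omissions changed signs of uncalled members: between the CMPs Mt1 ran from -0.025 to 0.16, Gclc from -0.49 to 0.001, Hmox1 from -1.47 to 0.23 and Slc30a4 from -0.73 to 0.04; in LSK CD150+CD48+ cells against pMT-10 CMPs Slc30a4 ran from -0.41 to 0.36, Slc30a9 from -0.79 to 0.12 and Slc39a8 from -0.60 to 0.29. Mtf1 ran from -0.18 to 0.091 in HSC against LSK CD150+CD48+ cells, and in HSC against pMT-10 CMPs Gclc ran from -0.47 to 0.016 and Hmox1 from -0.68 to 1.03 (0.11 with a replicate block, 0.19 in limma-voom). Replicate numbers did not pair the samples (correlations of deviations -0.0192, -0.0195 and -0.0764), and with the replicate block 5, 2, 5 and 4 members and 2950, 1203, 1566 and 2091 genes were called in the 4 comparisons, in the order above. HSC comparisons have no value without the single HSC library. Fewer samples or genes enter several of these fits; the cause of the other moves was not tested. Slc30a1, Slc39a1 and Hmox1, at 0 to 45 counts, are limited by depth.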
